A study of Mus musculus with 3 samples.

Results

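The S100 genes described here are 9 members of the S100 family, S100a3, S100a4, S100a6, S100a8, S100a9, S100a10, S100a11, S100a14 and S100a16, taken by gene symbol from the 31053 genes of a single-cell RNA sequencing study of the mouse anorectal junction. The gene table holds 17 S100 genes in all. Distal colon and anus of wild-type C57Bl/6 mice, bought at 6 weeks of age, were dissected in untreated animals (day 0), on day 7 after a 6-day course of 3% dextran sulfate sodium (DSS, which damages the colonic epithelium) in drinking water, or on day 42 of the same protocol. Each day is 1 library pooled from 5 mice, so differences between days have no replicate check, and the error given is the 95% counting interval of the molecules counted. Levels are unique molecular identifiers (UMIs, single captured transcripts) per 1000000 UMIs of a cell group (CPM), and the cell types and cluster numbers are the authors'.

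S100 proteins are small calcium sensors built from a pair of EF-hand motifs, and most work as dimers that change shape on binding calcium and then grip a partner protein. S100A8 and S100A9 pair as calprotectin, which neutrophils carry in bulk and which is measured in stool as a sign of gut inflammation, while S100A10 and S100A11 bind annexins at membranes. In skin and other squamous linings several S100 proteins accompany the differentiation of keratinocytes, and the genes lie together in the epidermal differentiation region of the genome.

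All 9 genes lie on mouse chromosome 3 in the GENCODE M21 annotation of the GRCm38 build. S100a14 (90526856 to 90528837, plus strand), S100a16 (90537254 to 90543151, plus), S100a3 (90560578 to 90602702, plus), S100a4 (90603771 to 90606045, plus) and S100a6 (90612882 to 90624181, plus) come first. S100a8 (90668978 to 90670035, plus) and S100a9 (90692632 to 90695721, minus) follow, with 22.6 kb between them. S100a11 (93520488 to 93526287, plus) and S100a10 (93555080 to 93564643, plus) lie farther along. The annotated S100a3 gene contains S100a2 on the same strand, and the predicted gene Gm42674 overlaps the end of S100a3 and most of S100a4 on that strand, so how the counting divided molecules among these genes is uncertain.

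Each of S100a8 and S100a9 was the other's nearest gene by profile across cell clusters, so the stretch before each start is shown, from RefSeq on GRCm38.p6, 5′ to 3′ on the gene's strand. Capitals mark matches to TTNNGNAA, a core of the motif bound by C/EBP factors, which act in myeloid cells. The S100a8 stretch is chr3:90668821-90668977 on the plus strand and the S100a9 stretch is chr3:90695722-90695971 on the minus strand.
S100a8: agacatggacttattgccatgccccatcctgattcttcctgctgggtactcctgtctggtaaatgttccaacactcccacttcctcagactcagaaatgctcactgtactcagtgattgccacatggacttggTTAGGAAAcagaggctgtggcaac
S100a9: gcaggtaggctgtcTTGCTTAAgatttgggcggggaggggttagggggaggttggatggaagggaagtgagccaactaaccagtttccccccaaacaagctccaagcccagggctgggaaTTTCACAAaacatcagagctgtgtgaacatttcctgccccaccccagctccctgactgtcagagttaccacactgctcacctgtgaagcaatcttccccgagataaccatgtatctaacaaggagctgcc
Searched on both strands over 250 bases before the RefSeq start, this motif had 1 match before S100a8 (TTAGGAAA, beginning 117 bases before the start) and 2 before S100a9 (TTGCTTAA at 236 bases and TTTCACAA at 130 bases). It occurs in 36.8% of the 32851 promoter windows of the same length. A TATA box (TATAAA), found in 12.4% of windows, began 30 bases before the S100a8 start, in a stretch that GENCODE places inside the gene and that is not printed. TGANTCA (AP-1, in 6.75% of windows) and GGANTTTCC (NF-kB, in 1.07%) had no match in either window, which says only that those letters are not there, and no 2 matches overlapped.

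The libraries held 11037, 14376 and 11667 cells with median depths of 5995, 6217.5 and 5708 UMIs per cell at days 0, 7 and 42. Cell barcodes were shared by 2 libraries in 139 cases (278 cells), and leaving those cells out moved none of the 54 log2 ratios described below beyond its counting interval. Neutrophils, macrophages, fibroblasts, keratinocytes and the 3 colonocyte labels had their own list as the highest on each day. In cells labelled T cells at day 7 and endothelial cells at day 42 the keratinocyte list had the highest summed level (2469 and 4316 CPM). No list of their own was scored for lymphatic cells, muscle-like cells, red blood cells, B cells or the cells labelled Unknown. Their leading list therefore does not bear on these labels. It was the colonocyte or keratinocyte list in B cells and the keratinocyte or fibroblast list in the others. In the text, squamous cells are the authors' keratinocytes (3316, 9035 and 7970 cells) and columnar cells are their colonocytes, secretory colonocytes and enteroendocrine cells (4306, 1062 and 1680 cells).

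The 9 genes fell into a few patterns across the 7 classes drawn below. S100a8 and S100a9 were highest in neutrophils, S100a4 was highest in T cells, macrophages and fibroblasts, S100a14 and S100a16 were highest in epithelium, S100a3 was highest in squamous cells, and S100a6, S100a10 and S100a11 were found in every class. The plot of all members by class shows each pattern.

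**Figure D1:**
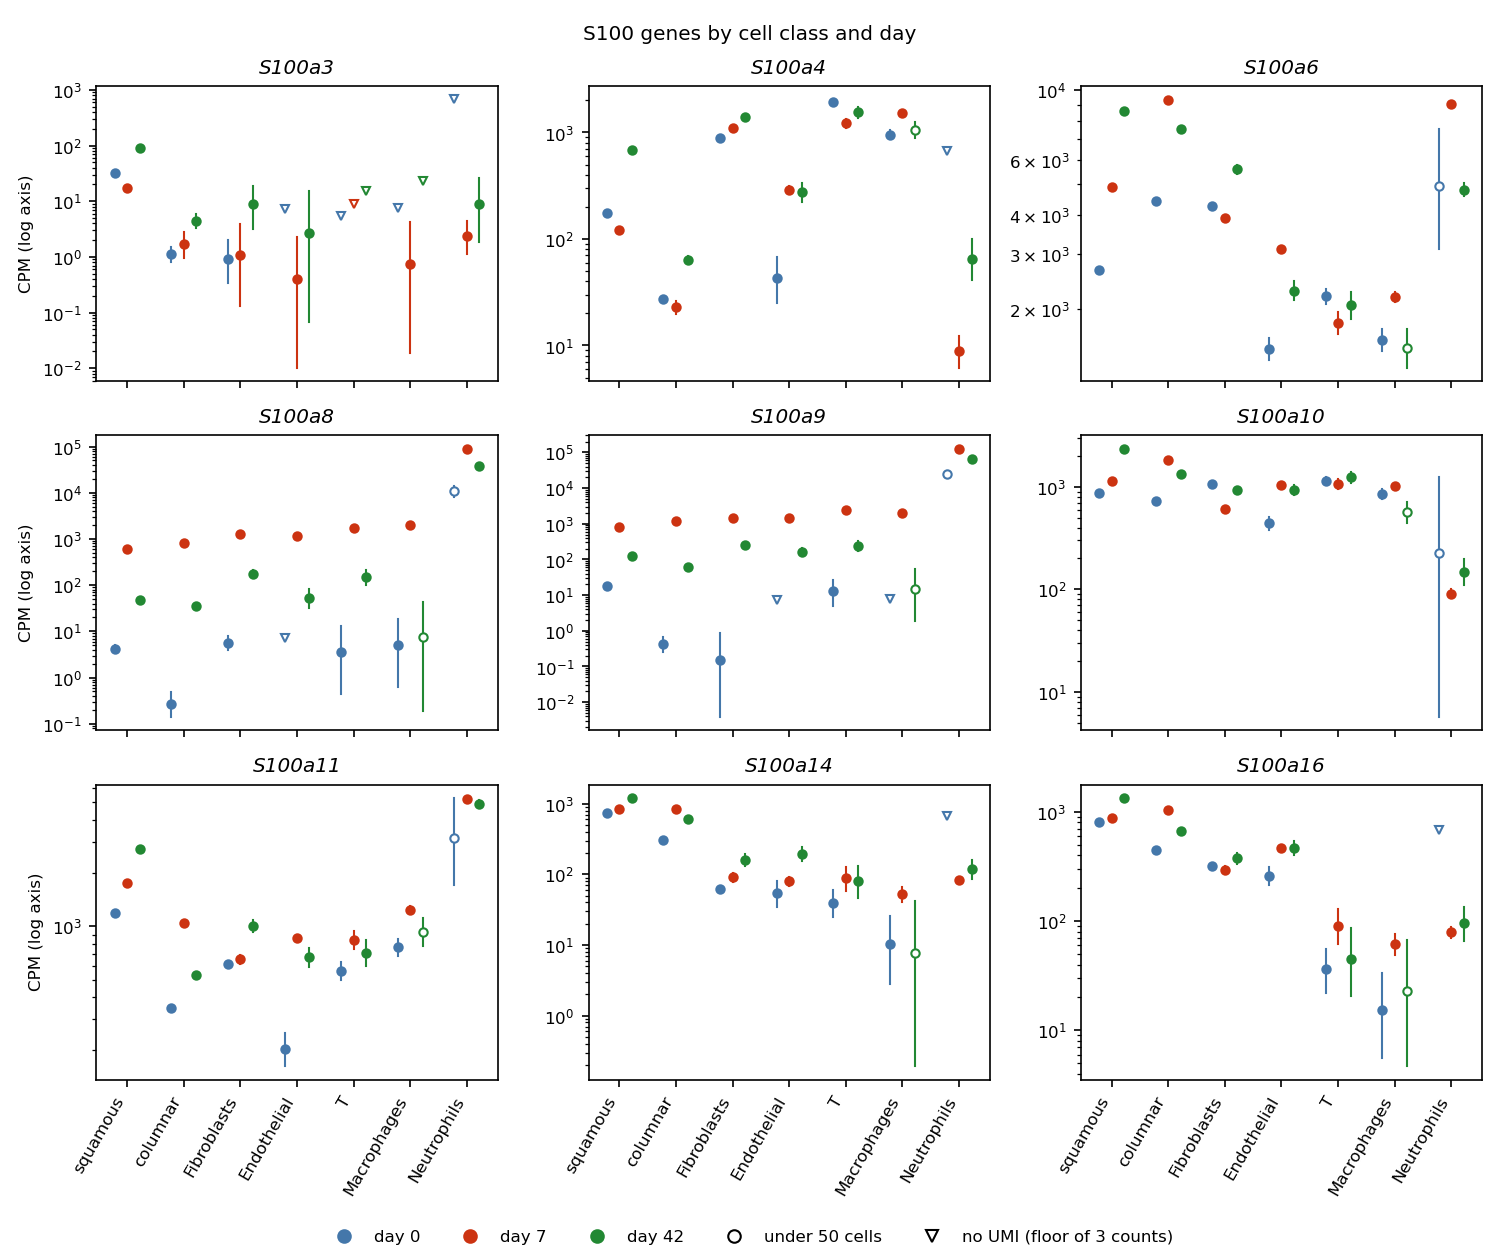
Level of each S100 gene (vertical log axis, CPM) in 7 cell classes at days 0, 7 and 42, with 95% Poisson counting intervals. Open circles are classes of under 50 cells and triangles mark the level that 3 counts would give where no UMI was found. S100a8 and S100a9 at day 7 lie far above day 0 in the 6 classes other than neutrophils, of which day 0 had 5 cells.

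S100a8 encodes one subunit of calprotectin. In the authors' neutrophil cluster, number 11, it stood at 89485 CPM at day 7 (1513 cells, 99.3% with a UMI) and 37677 CPM at day 42 (448 cells). The day 0 library held 5 such cells, with 48 UMIs of S100a8, and gives no usable reference level. The day 42 neutrophils were shallow, with a median of 662 UMIs against 2585 at day 7. Only 15 of them, against 1352 at day 7, passed a filter on depth (1000 UMIs, 500 genes) and on the mitochondrial share (20% or less), and those 15 had 45052 CPM of S100a8. In squamous cells S100a8 was 4.21 CPM (95% interval 3.55 to 4.95) at day 0, 597 (593 to 602) at day 7 and 47.8 (46.0 to 49.6) at day 42. In columnar cells it was 0.273 CPM (0.141 to 0.478), 824 (805 to 843) and 34.6 (31.3 to 38.3). Cluster 22, a colonocyte cluster with 279 of the 1062 columnar cells of day 7, held 45.9% of their S100a8 and 50.1% of their S100a9 UMIs, and without it the day 7 level of S100a8 was 488 CPM (473 to 503). Day 7 was the highest in both and day 42 lay between the other days, with no overlap of intervals.

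S100a9, the other calprotectin subunit, followed the same order. It was 127202 CPM in cluster 11 at day 7 and 66838 at day 42. Squamous cells had 18.6 (17.1 to 20.1), 825 (820 to 830) and 128 (125 to 131) CPM, and columnar cells had 0.433 (0.261 to 0.676), 1162 (1140 to 1185) and 62.7 (58.2 to 67.5), with 635 (617 to 652) at day 7 without cluster 22. With 10 CPM added to each level, the log2 ratio of day 7 to day 0 was 5.42 for S100a8 and 4.87 for S100a9 in squamous cells, and 6.34 and 6.81 in columnar cells. The same ratios for day 42 against day 0 were 2.02 and 2.27 in squamous cells and 2.12 and 2.80 in columnar cells. The columnar values at day 42 rest on few cells: 10 of 1680 cells held 72.1% of the S100a8 and 73.3% of the S100a9 UMIs, and without the 10 leading cells of each gene the ratios were 0.97 and 1.41. Without cells holding a UMI of Csf3r or Cxcr2, both neutrophil receptors, the squamous day 42 ratios were 0.79 for S100a8, under 2-fold, and 1.70 for S100a9. Leaving out cells with Il1r2 as well gave 0.43 and 1.42 in squamous cells, and 0.92 and 1.72 in columnar cells.

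The day 7 level was not special to epithelium. Endothelial cells had 1143 CPM of S100a8, fibroblasts 1255, T cells 1718 and macrophages 2049, against at most 5.66 CPM in these classes at day 0. The 9 other neutrophil markers moved with it, from 2.37, 57.8, 9.05 and 107 CPM at day 0 to 427, 514, 1251 and 1483 at day 7 in endothelial cells, fibroblasts, T cells and macrophages, and their part in the result was not tested. In these 4 classes the median cell had 0 UMIs of either gene, and the 10 cells with most S100a8 UMIs held between 85.4% and 96.7% of them. In squamous cells the 10 leading cells held 8.01%, and in columnar cells 39.6%. These shares also follow the number of cells, 118 to 316 in the 4 classes against 9035 squamous and 1062 columnar cells, so their order is not read further.

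The share of cells with at least 1 UMI of S100a8 was 1.39%, 60.9% and 4.93% in squamous cells at days 0, 7 and 42, and 0.279%, 52.8% and 4.05% in columnar cells. T cells, a type not known for this gene, had 0.457%, 23.7% and 3.31%. Median depths at day 7 were 11481 UMIs per squamous, 4017 per columnar and 2260 per T cell. After each cell was thinned to 1000 UMIs, which left out 468, 33 and 10 shallower cells, the day 7 shares were 24.0% in squamous, 28.7% in columnar and 12% in T cells. The day 42 shares in squamous and columnar cells lay within the 95% interval of that in T cells (0.908% to 8.25%) and are not read as expression.

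Relative to cluster 11 of the same library, a squamous cell held on average 3.41% as many S100a8 UMIs at day 7 and a columnar cell 2.78%. The figures for S100a9 were 3.32% and 2.76%. Per cell, these values include depth. As CPM, which do not, S100a8 stood at 0.667% of the cluster 11 level in squamous and 0.921% in columnar cells, the other order. The summed level of other neutrophil markers was also highest at day 7. The 9 genes of the neutrophil list, among them Csf3r and Cxcr2 (receptors for granulocyte colony-stimulating factor and for chemokines) and Retnlg, summed to 41.9, 224 and 45.1 CPM in squamous cells and to 4.10, 377 and 23.5 CPM in columnar cells, against 45389 CPM in cluster 11 at day 7. Il1r2, a decoy receptor for interleukin 1, went the other way in squamous cells, with 40.2, 20.4 and 14.7 CPM. The other 8 markers summed to 1.71, 204 and 30.5 CPM there and to 1.94, 363 and 20.8 CPM in columnar cells. Without the cells that held a UMI of Csf3r or Cxcr2 (4.91% of squamous and 6.12% of columnar cells at day 7), a filter chosen after seeing the data, the S100a8 figures were 1.57% and 1.37%. The part of neutrophil RNA or of attached neutrophils in these levels was not tested.

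The pair was also set against each other. S100a8 made up 41.3% (41.2 to 41.4) of the UMIs of both genes in cluster 11 at day 7 and 36.0% (35.5 to 36.6) at day 42, or 40.0% (38.3 to 41.8) in the 15 deeper cells of that day. Columnar cells had 41.5% (40.8 to 42.2) at day 7 and 35.6% (32.7 to 38.5) at day 42, both overlapping cluster 11. Without cluster 22 the columnar share at day 7 was 43.5% (42.4 to 44.5), above cluster 11. Squamous cells had 42.0% (41.8 to 42.2) at day 7 and 27.2% (26.4 to 28.1) at day 42, so at day 42 they held relatively more S100a9 than the neutrophils of that library. Of the 19 other clusters with at least 50 cells at day 7, 8 lay above the interval of cluster 11, 4 below it and the rest overlapped it.

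**Figure D2:**
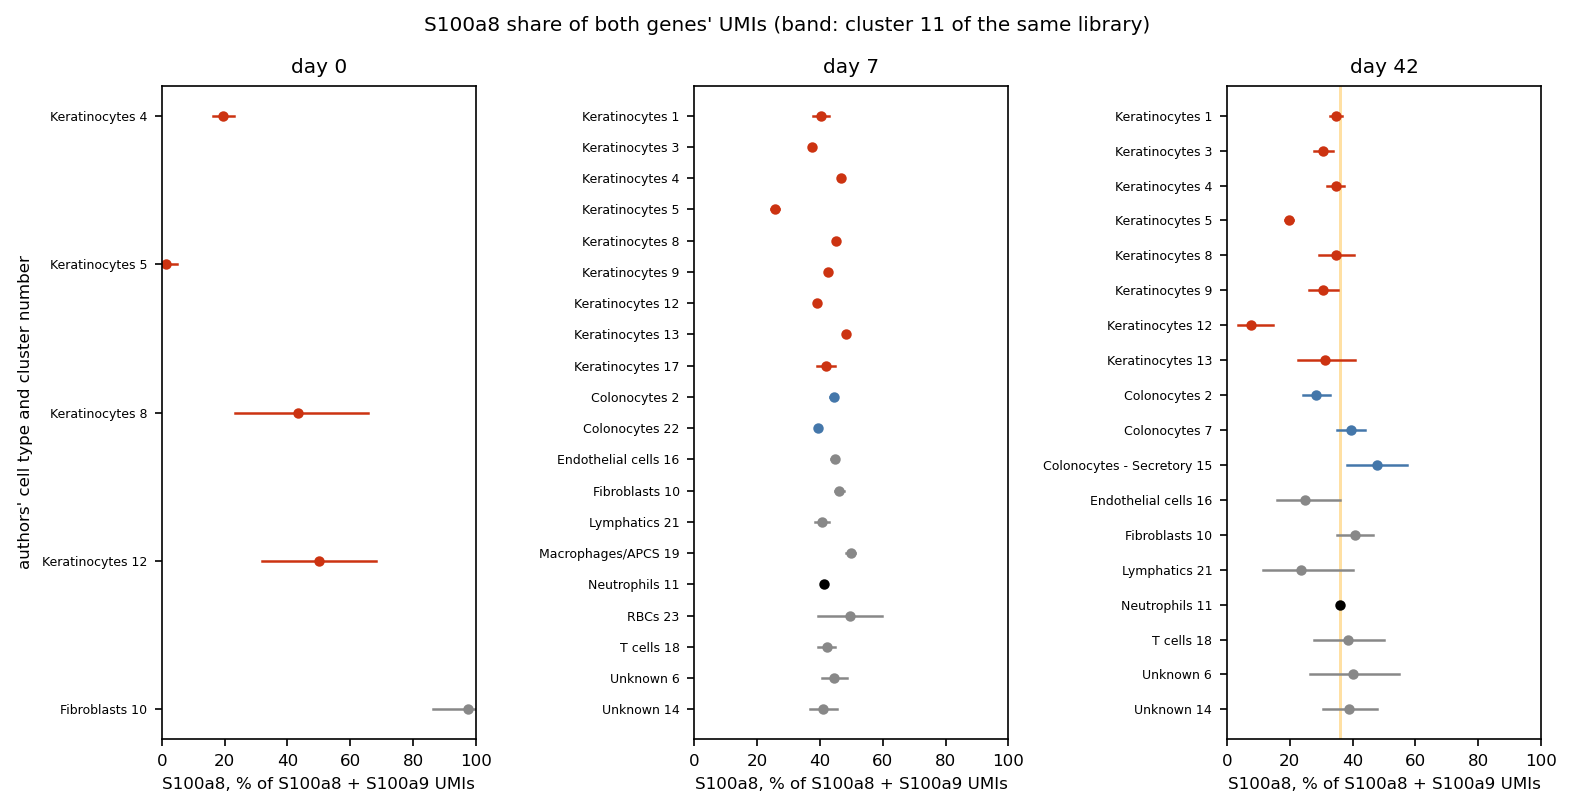
Share of S100a8 (horizontal axis, percent) in the UMIs of S100a8 and S100a9 together, by cluster and day, for clusters with at least 50 cells and at least 20 such UMIs. Lines are 95% Clopper-Pearson intervals, the black point and band are neutrophil cluster 11, red points are keratinocyte clusters and blue points colonocyte clusters. Keratinocyte cluster 5 lies far to the left on every day, at 1.38%, 25.6% and 19.8%, and cluster 12 lies farther left at day 42, at 7.77%.

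Keratinocyte clusters 4, 5 and 12 are described in more detail. In cluster 4 at day 7 the median cell held 4 UMIs of S100a8 and 5 of S100a9, 79.7% of its 1315 cells had a UMI of S100a8, and the levels were 1192 and 1362 CPM. Each UMI of the 9 neutrophil markers came with 5.43 UMIs of S100a8 there, against 1.97 in cluster 11. A higher value than in cluster 11 was common at day 7, found in 14 of 19 other clusters for S100a8 and in 12 of 19 for S100a9. Cluster 5 leaned to S100a9: at day 0, in a library with 5 neutrophils, its 87 cells held 143 UMIs of S100a9 and 2 of S100a8. At day 7 it had 1069 CPM of S100a9 and 367 of S100a8, and 10.9 UMIs of S100a9 for each marker UMI against 2.80 in cluster 11. Cluster 12 had the highest day 7 levels of the keratinocyte clusters of at least 50 cells, 2215 CPM of S100a8 and 3441 of S100a9. Its shares of S100a8 were 50%, 39.2% and 7.77% (3.41 to 14.7) at days 0, 7 and 42. The day 0 share rests on part of the 143 UMIs of S100a8 found in all squamous cells of that day. The day 42 share came from 8 UMIs of S100a8 and 95 of S100a9 and was lower than the 19.8% of cluster 5 on that day.

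To set neutrophil-bearing cells aside, cells with no UMI of 7 neutrophil markers (the list without Il1r2 and G0s2, which occur in cells of other types) were described, a choice made after seeing the data that also favours shallower cells. In cluster 4 at day 7, 1024 of 1315 cells were left, and they had 821 CPM of S100a8 and 869 of S100a9, with a median of 4 UMIs of each. The 120 cells left in cluster 5 had 75.0 CPM of S100a8 and 782 of S100a9, so S100a8 made up 8.75% of the pair. Among other cells, the 253 fibroblasts left had 85.4 and 109 CPM, the 222 endothelial cells 72.8 and 86.0, and the 586 cells of colonocyte cluster 2 113 and 117, so cluster 5 was near or below them for S100a8 and above them for S100a9. The 63 cells left in colonocyte cluster 22 had 1522 CPM of S100a8 and 2317 of S100a9, more than any of these. At day 42 the 2088 cells left in cluster 5 had 9.10 CPM of S100a8 and 133 of S100a9, and the 150 left in cluster 12 had 38.8 and 461.

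**Figure D3:**
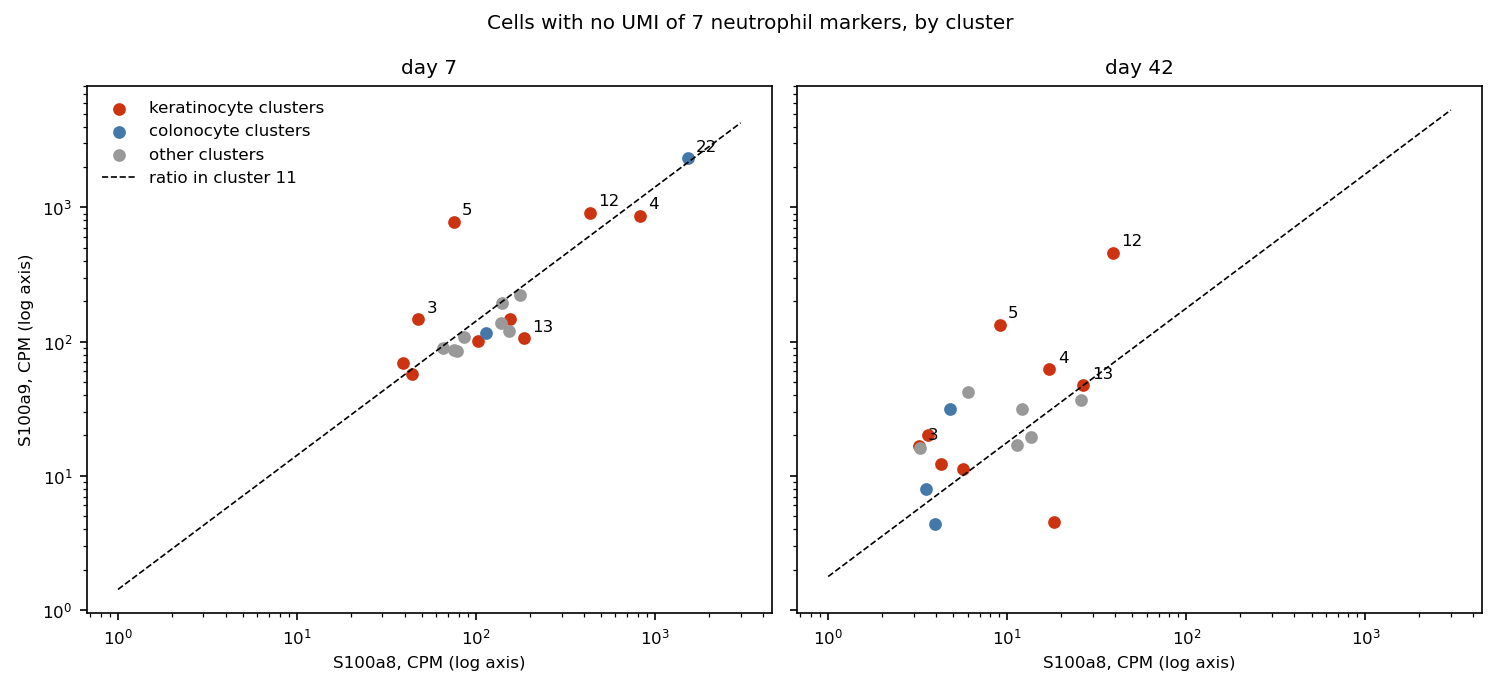
Levels of S100a8 (horizontal log axis) and S100a9 (vertical log axis), in CPM, in cells with no UMI of 7 neutrophil markers, by cluster of at least 50 such cells, at days 7 and 42. The dashed line is the ratio of the pair in neutrophil cluster 11. Keratinocyte clusters 4 and 12 and colonocyte cluster 22 are high in both genes at day 7, and cluster 5 lies above the line on both days.

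Colonocyte cluster 22 was nearly confined to day 7 (4, 279 and 5 cells). It had 4354 CPM of S100a8 and 6702 of S100a9, with 9 and 14 UMIs in the median cell. Its neutrophil markers summed to 2064 CPM, it held 2.11 UMIs of S100a8 for each of them against 1.97 in cluster 11, and S100a8 made up 39.4% of the pair. The marker ratio was thus above that of cluster 11, and the share was below its 41.3% (41.2 to 41.4). Whether neutrophil RNA accounts for these values was not tested.

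S100a6, known as calcyclin, is an abundant S100 gene of epithelia and stroma. It was 2659 CPM (2642 to 2676) in squamous cells at day 0, 4888 (4876 to 4900) at day 7 and 8566 (8542 to 8589) at day 42. In columnar cells it was 4415, 9294 and 7505 CPM, and in neutrophils 9065 at day 7 and 4810 at day 42. The order thus differed by class: the squamous level was highest at day 42 and the columnar and neutrophil levels at day 7. Single clusters had other orders. Keratinocyte cluster 5 had 8461, 10564 and 10830 CPM, cluster 4 had 1056, 986 and 1307, and colonocyte cluster 2 had 7815, 10079 and 11312, highest at day 42 and not, as in the columnar class, at day 7.

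S100a10 encodes the partner of annexin A2. Its level was 869, 1129 and 2344 CPM in squamous cells and 728, 1812 and 1340 in columnar cells at days 0, 7 and 42. Neutrophils had a low level at day 7, 90.5 CPM from 380 UMIs, while T cells had 1064 CPM and macrophages 1013. A low level was not particular to neutrophils. Cells labelled Unknown had 139 CPM at day 7, and cluster 23 had the lowest level of the clusters of at least 50 cells, 50.5 CPM. Among clusters of at least 50 cells the highest level on each day was in keratinocyte cluster 5, with 3090, 2488 and 3321 CPM.

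S100a11, which binds annexin A1, had a similar order, with 1187, 1759 and 2719 CPM in squamous and 348, 1039 and 531 CPM in columnar cells. It was high in neutrophils, at 5232 CPM at day 7 and 4903 at day 42. Colonocyte cluster 2 had 264, 942 and 504 CPM, so the day 7 level was highest within 1 cluster as well as in the class.

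S100a14 and S100a16 are paired here because their cluster profiles were alike (r = 0.876 over 60 cluster and day profiles). S100a14 was 733, 837 and 1200 CPM in squamous cells and 306, 846 and 616 in columnar cells, against at most 196 in neutrophils, T cells, macrophages, fibroblasts and endothelial cells. S100a16 was 811, 876 and 1327 CPM in squamous and 449, 1041 and 672 in columnar cells. In fibroblasts S100a16 was 320, 292 and 374 CPM against 61.2, 91.3 and 161 for S100a14, and in endothelial cells 261, 468 and 465 against 54.6, 79.5 and 196. Among clusters of at least 50 cells keratinocyte cluster 5 was again the highest for both, with 2319, 2036 and 1926 CPM of S100a14 and 2575, 2347 and 2137 CPM of S100a16.

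S100a4, also called fibroblast-specific protein, marks motile and stromal cells. T cells had 1924, 1224 and 1540 CPM, fibroblasts 890, 1109 and 1407, and macrophages 955 and 1523 at days 0 and 7. Neutrophils had only 8.81 CPM at day 7 and 65.5 at day 42. Squamous cells had 176 (171 to 180), 123 (121 to 125) and 679 (672 to 685) CPM, and columnar cells 27.3, 22.9 and 64.1. Within squamous clusters the day 7 level was lower than day 0 in 8 of 9, for example 422, 154 and 1047 CPM in cluster 1 and 583, 202 and 848 in cluster 3.

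S100a3 is known from the hair shaft cuticle. Squamous cells had 32.6, 17.0 and 90.1 CPM, and columnar cells 1.12, 1.68 and 4.47. The highest level was in keratinocyte cluster 26, with 4198 CPM in 12 cells at day 0, 2803 in 20 cells at day 7 and 35926 in 3 cells at day 42, too few to compare between days. Among clusters of at least 50 cells, cluster 5 led with 176, 64.8 and 138 CPM.

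**Figure D4:**
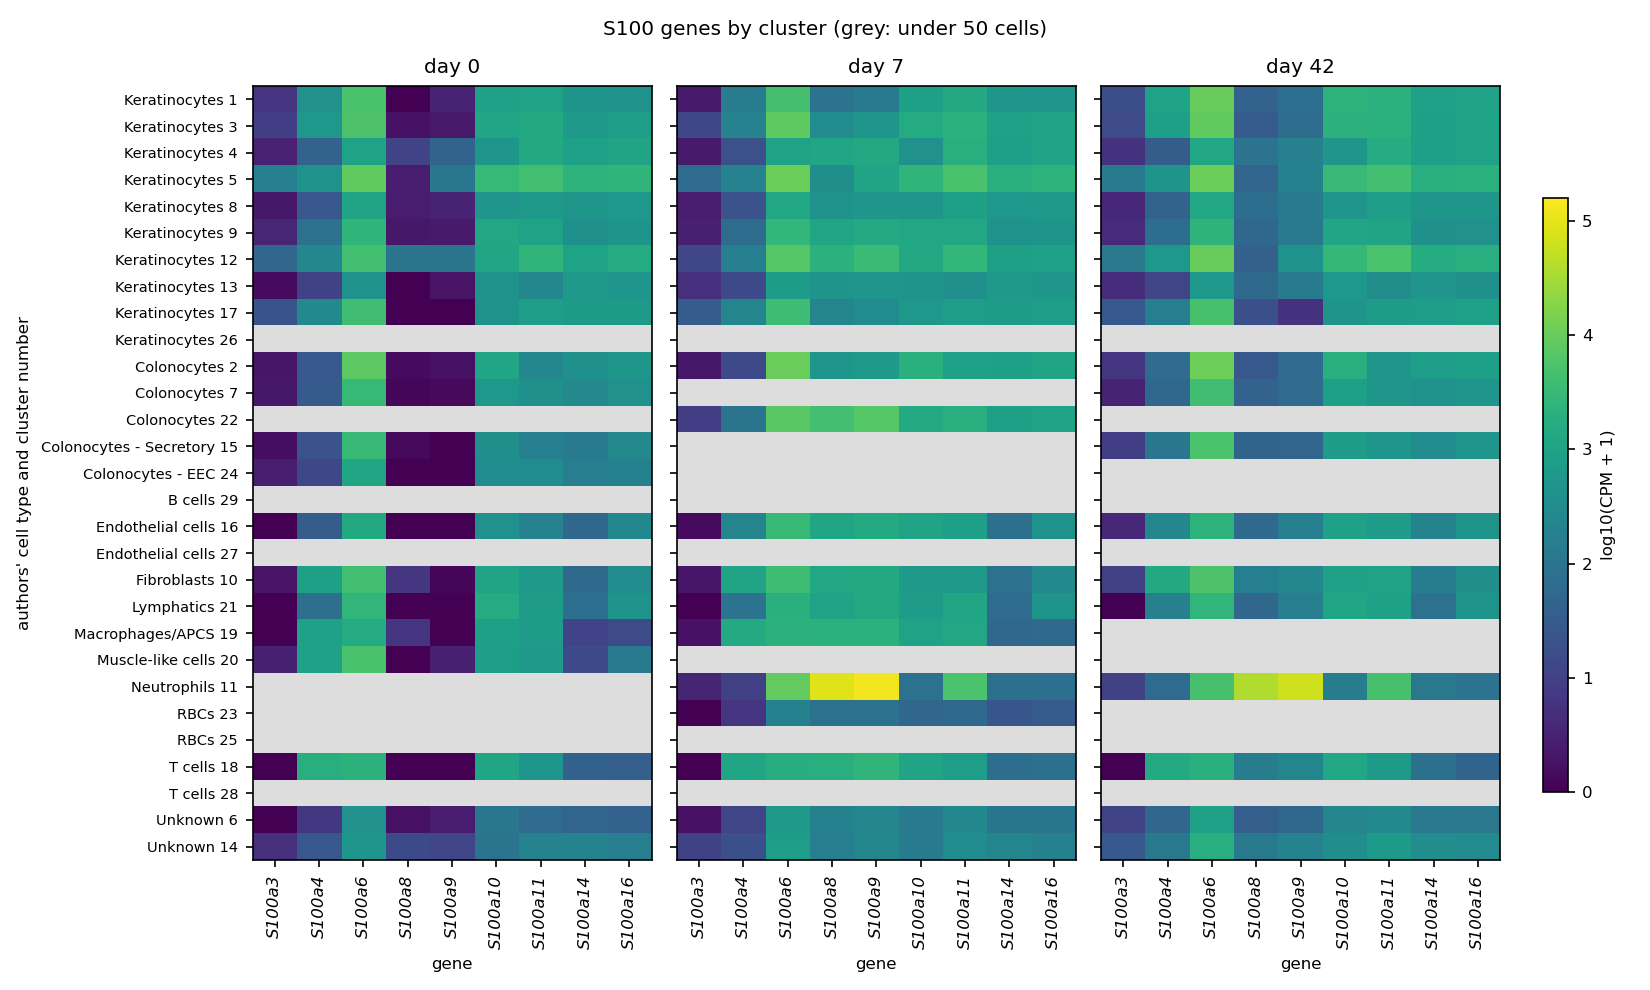
Level of each S100 gene, as log10 of CPM plus 1 (colour), by authors' cluster (rows) and day (panels), with clusters of under 50 cells in grey. Keratinocyte cluster 5 is high for S100a6, S100a10, S100a11, S100a14 and S100a16 on each day, and neutrophil cluster 11 for S100a8 and S100a9.

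Members that differed by 2-fold or more (a log2 ratio of at least 1 with 10 CPM added) were counted beside all genes, as a description of these libraries. Between day 7 and day 0, 7 of 9 members were at least 2-fold higher in columnar cells, against 3.37% of all 10126 genes with at least 5 CPM, and none was 2-fold lower, against 2.03%. Within colonocyte cluster 2, the only columnar cluster with enough cells on both days, the count was 4, since S100a6 (0.37), S100a10 (0.81) and S100a16 (0.96) fell short of 2-fold on the log2 scale. In squamous cells 2 of 9 were higher (1.15% of genes) and none lower (0.971%). Between day 42 and day 0, 7 of 9 were higher in squamous cells (2.31% of genes; none lower, 1.99%; 6 without S100a8 when cells with a UMI of Csf3r or Cxcr2 were left out) and 2 of 9 in columnar cells (1.16%; none lower, 0.361%). The order of the classes in these day 42 counts rests on pooled cells, since with equal weight to clusters the squamous count was 2 rather than 7. Shares of all genes are given for pooled cells only. The counts within cluster 2 and with equal weight therefore have none beside them.

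Between day 42 and day 7, S100a3, S100a4 and S100a10 were at least 2-fold higher in squamous cells (1.73% of genes) and S100a8 and S100a9 2-fold lower (1.43%). With equal weight to each squamous cluster only S100a4 of the 3 was still 2-fold higher. In columnar cells S100a4 was higher (1.04%) and S100a8 and S100a9 were lower (1.35%). The S100a4 log2 ratio of 1.17 there became -0.071 without the cells in the top 5% of Scrublet (doublet) scores and -0.12 with cells thinned to 1000 UMIs. The median log2 ratio of the members was 1.30 in columnar cells at day 7 against day 0, where that of all genes was -0.15. In squamous cells at day 42 against day 0 it was 1.42, against -0.05 for all genes.

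**Figure D5:**
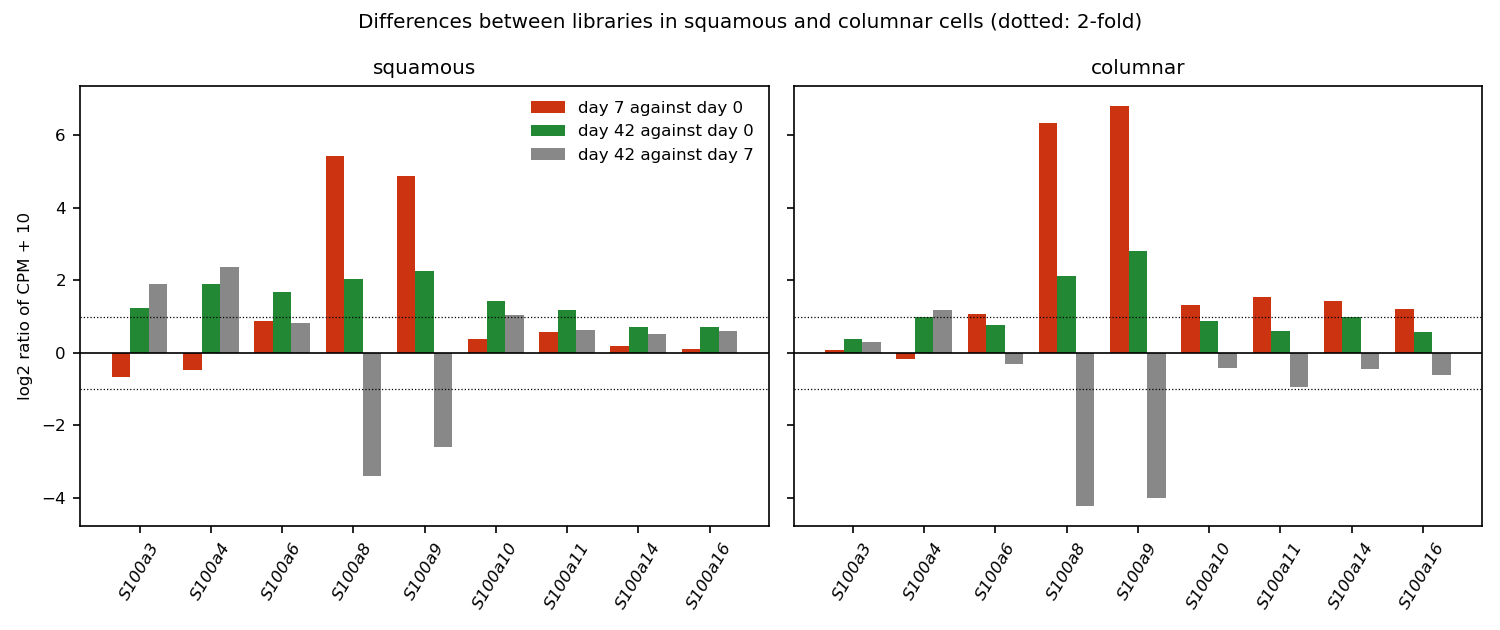
Log2 ratio of CPM plus 10 between libraries for each S100 gene in squamous and columnar cells, with dotted lines at 2-fold. S100a8 and S100a9 have the longest bars, and for each class as a whole S100a6, S100a10, S100a11, S100a14 and S100a16 are higher at day 42 than at day 7 in squamous cells and lower in columnar cells.

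Within clusters the day 42 to day 7 ratios were not all of that sign. S100a11 was lower at day 42 in 7 of 9 squamous clusters (median log2 ratio -0.13), and S100a14 (median -0.080) and S100a16 (median -0.030) were lower in 5 of 9. In colonocyte cluster 2 S100a6 was higher at day 42, with a log2 ratio of 0.17.

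The cluster make-up of the squamous class also differed between days. Keratinocyte cluster 5, the highest of the clusters of at least 50 cells for S100a3, S100a10, S100a14 and S100a16, held 87, 162 and 2153 cells at days 0, 7 and 42, and cluster 1 held 443, 563 and 3043. With equal weight to each of the 9 squamous clusters, 2 rather than 7 members were at least 2-fold higher at day 42 than at day 0. Within clusters, the day 42 to day 0 log2 ratio of S100a10 had a median of 0.11 over 9 squamous clusters, that of S100a14 a median of 0.0031 and that of S100a6 a median of 0.36. In cluster 1 the ratios were 1.25 for S100a10, 1.02 for S100a11 and 1.29 for S100a4, and in cluster 12 they were 1.30, 1.05 and 1.22. These were the only 2 of 9 squamous clusters at 2-fold or more for these genes. The median was 0.30 for S100a11 and 0.17 for S100a4, which was lower at day 42 in 3 of 9.

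Annexins that S100 proteins bind were read beside them. Anxa1 was 1404, 1928 and 5055 CPM in squamous cells and 227, 772 and 548 in columnar cells at days 0, 7 and 42. Anxa2 was 1085, 1373 and 3004 CPM in squamous cells and 570, 1600 and 1068 in columnar cells, the same order of days as S100a10 in both classes. That order was not particular to this pair, since Anxa1, S100a6, S100a11, S100a13, S100a14 and S100a16 had it too. Anxa11 was 19.1, 30.3 and 39.4 CPM in squamous cells and 166, 127 and 151 in columnar cells, where day 7 was the lowest. The receptors for calprotectin were barely detected: Tlr4 had at most 14.6 CPM and Ager at most 1.0 CPM in squamous and columnar cells. Of the 8 partners and receptors, 2 were at least 2-fold higher in columnar cells at day 7 and 2 in squamous cells at day 42, each against day 0, beside 3.37% and 2.31% of all genes, and none was 2-fold lower in either (2.03% and 1.99% of genes).

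Of the 8 S100 genes outside the members, S100a1 and S100a13 reached 100 CPM in squamous or columnar cells. S100a13 was 44.6, 51.6 and 130 CPM in squamous cells and 82.2, 181 and 140 in columnar cells. Of the 7 fused S100 genes, large proteins of the cornified layer with an S100 domain, Tchh (trichohyalin) was at least 2-fold lower in squamous cells at day 7 and day 42 than at day 0, with log2 ratios of -1.07 and -1.61, beside 0.971% and 1.99% of all genes.

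For each member the genes with the most similar profile were sought over 60 cluster and day profiles and 5354 genes, as a description. The profiles share libraries, so no p-value is given. S100a8 was nearest S100a9 (r = 0.974), Retnlg (0.951) and Wfdc17 (0.909), and S100a14 was nearest Sfn (0.961), Serpinb5 (0.940) and Anxa8 (0.928). S100a6 and S100a11 were both nearest Anxa2, with r of 0.847 and 0.857. S100a10 was nearest Svbp (0.839), Ap2m1 (0.836) and Capns1 (0.826), so Anxa2 was not among its 3 nearest genes. S100a4 was nearest Emp3 (0.778), a looser match than for any other member, and S100a3 was nearest Lypd2 (0.866).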

How the data were processed

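Single-cell RNA sequencing was made from 3 libraries of mouse distal colon and anus, 1 per day, each a pool of 5 mice, digested with trypsin, depleted of dead cells by annexin V selection and prepared with 10x Chromium 3' chemistry per the labels. The authors deposited unnormalized counts, whole numbers for each gene in each cell, made with Cell Ranger 3.0.2 on mm10 per the submitters' processing notes. The annotation release, the filter on cells and the cell typing method are not given in the sources used here. The deposited size factor is a ratio: each cell's total divided by it gave 5283.43 in every cell. Counts were summed per class, cluster and day and given as CPM. Between days, CPM values (10 CPM added to each) were divided and put on the log2 scale, for classes and clusters of 50 cells or more on both days. With 1 library per day no test was possible. Intervals are exact Poisson for levels and Clopper-Pearson for shares at 95%, they cover counting error only, and a gene without a UMI has a floor of 3 counts. The background was every gene that reached 5 CPM on either day. Shares of cells were also computed after thinning to 1000 UMIs. Named genes were the 9 members, fixed lists of partners, other S100 genes, fused genes and cell type markers, and the 3 genes with the most similar profile to each member. The members and lists were chosen with earlier results of these data known. The alternatives were other scalings, pseudocounts, cell weights and filters on cells, the Scrublet doublet score among them. The tests on simulated data recovered known ratios. The tools were scanpy 1.11.5, scipy 1.17.1, pandas 2.3.3 and numpy 2.4.6 under Python 3.11.15.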

Additional observations from a re-analysis of the deposited data

Results flagged for a closer look

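S100a10 went opposite ways in 2 classes between day 7 and day 0, with a log2 ratio of 1.30 in columnar cells and -1.09 in lymphatic cells; the difference was not tested. Signal outside the compared classes was seen at day 7 in the cells labelled muscle-like (41 cells), with 4553 CPM of S100a8, 5342 of S100a9 and 189 of S100a14. Their neutrophil markers went from 43.6 CPM at day 0 to 1862 at day 7; their part was not tested. The cells labelled red blood cells had 168 CPM of S100a8 and 216 of S100a9 on that day, with 42.8 CPM of the markers against none at day 0.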

How the results depend on the processing

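Between day 7 and day 0 in columnar cells, 7 members were at least 2-fold higher, and 4 were with equal weight to clusters, where only cluster 2 had enough cells. Between day 42 and day 0 in columnar cells the count of 2 became 4 with median-of-ratios size factors, 5 with a pseudocount of 1 CPM and 1 without the 10 cells with most UMIs of each gene. Between day 42 and day 7 in columnar cells the count of 1 became 2 with a pseudocount of 1 CPM and 0 with the mean of CPM per cell, without cells in the top 5% of Scrublet scores or with thinned cells. That count is S100a4, whose log2 ratio of 1.17 became -0.071 without the high Scrublet scores and -0.12 with thinned cells; the cause was not tested. In squamous cells equal weight to clusters gave 2 members higher between day 42 and day 0 and 1 between day 42 and day 7, where 7 and 3 were counted. No share of all genes is given for these settings, so the changed counts have none to be read against.

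S100a8 UMIs per cell as a share of cluster 11 are given in the order: without cells with a UMI of Csf3r, Cxcr2 or Il1r2; without those with Csf3r or Cxcr2; without the 10 leading cells; minus the lowest class of the library. Squamous cells had 1.48%, 1.57%, 3.20% and 3.26% at day 7 and 0.250%, 0.373%, 1.05% and 0.954% at day 42, where the unfiltered value was 1.23%. Columnar cells had 1.12%, 1.37%, 1.73% and 2.63% at day 7 and 0.220%, 0.297%, 0.254% and 0.536% at day 42 (0.816% unfiltered). For S100a9, squamous cells had 1.46%, 1.54%, 3.12% and 3.18% at day 7 and 0.942%, 1.03%, 1.66% and 1.62% at day 42 (1.86% unfiltered). Columnar cells had 1.12%, 1.39%, 1.81% and 2.62% at day 7 and 0.322%, 0.389%, 0.244% and 0.589% at day 42 (0.833% unfiltered). The Il1r2 filter removed 19.5% of squamous cells at day 0.

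The filter on cells (at least 1000 UMIs and 500 genes, at most 20% mitochondrial UMIs) left out 43.6% of columnar cells at day 0 and 96.7% of neutrophils at day 42 (10.6% at day 7), so the day 42 values set against cluster 11 rest on shallow cells: its S100a8 UMIs per cell were 28.2, and 79.6 in the 15 cells kept. The filter moved 31 of 54 class levels beyond their counting intervals. Of the 54 log2 ratios, between 51 and 54 kept their sign under each setting. With 1 library per day, no setting measures variation between mice.

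Without clusters 12 and 22 the columnar log2 ratios of day 42 to day 7 were -3.48 for S100a8 and -3.15 for S100a9, against -4.22 and -4.01. The filters on shared barcodes, on clusters 12 and 22 and on Csf3r or Cxcr2 were chosen after seeing the data. No paired analysis was possible because each day has 1 library.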
